A study of Mus musculus with 25 samples.

Results

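The tumour necrosis factor (TNF) superfamily was examined in bipotential mouse embryonic liver (BMEL) cells, in the tumours they form and in the stroma of those tumours. Its members were taken as every gene of the count table whose symbol starts with Tnfsf or Tnfrsf and a number, together with Tnf, Lta, Ltb, Fas, Fasl, Cd40, Cd40lg, Cd27, Cd70 and Ngfr. This gave 41 genes of 24984, of which 17 encode ligands and 24 encode receptors. RNAseq of the study covered 25 libraries in 7 groups. The cultured cells, a clonally derived line from C57BL/6xC3H embryos, were BMEL carrying an empty vector, called control here (n = 3), and BMEL sorted for low (RasLOW, n = 3) or high (RasHIGH, n = 3) expression of HRasG12V delivered by lentivirus. The other 16 libraries came from 4 athymic nude mice bearing BMEL-Ras tumours, with fluorescent tumour cells and non-fluorescent stromal cells sorted from the liver tumour and from the peritoneal tumour of each mouse. Nude mice lack T cells matured in the thymus and retain natural killer (NK) cells, and the labels do not say which Ras population was injected into these 4 animals.

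As background, ligands of this family are mostly membrane proteins that act as trimers, on the cell surface or after shedding, and their receptors fall into classes. Death-domain receptors such as Fas, Tnfrsf1a and Tnfrsf10b can recruit Fadd and caspase-8 and so start apoptosis. Receptors without a death domain, such as Tnfrsf1b, Cd40 and Tnfrsf11a, bind Traf adaptors and mainly signal to NF-kappaB and Jun kinases, while decoy receptors bind ligand with little or no signal of their own. In the liver, Fas ligand, TNF and TRAIL (the product of Tnfsf10) are the best known death ligands that NK cells and macrophages use against hepatocytes and tumour cells.

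Some sequences matter for reading the values. Tnfrsf22 and Tnfrsf23, decoy receptors for TRAIL, lie beside Tnfrsf26 on chromosome 7 (mm9 chr7:150793568-150871777, all on the minus strand). Of all 50-base windows of the protein-coding transcripts (GENCODE on mm9), 17.1% of those of Tnfrsf22 and 21.5% of those of Tnfrsf23 also occur in the other gene, so that reads from these windows cannot be assigned to one of the pair. The following 60 coding bases, positions 421 to 480 of Tnfrsf22 and 391 to 450 of Tnfrsf23, are identical in both and are shown for that reason.
Tnfrsf22 and Tnfrsf23: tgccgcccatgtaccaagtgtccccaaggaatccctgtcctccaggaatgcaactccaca
The signalling TRAIL receptor gene Tnfrsf10b (mm9 chr14:70167279-70184210, plus strand) is more distant. Its closest 60-base ungapped coding stretch to Tnfrsf22, shown with the differing bases in capitals, held 37 identical bases (61.7%), and 2.02% of the windows of Tnfrsf10b occur in another gene, none of them a family member.
Tnfrsf22: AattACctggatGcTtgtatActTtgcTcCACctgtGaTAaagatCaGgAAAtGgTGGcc
Tnfrsf10b: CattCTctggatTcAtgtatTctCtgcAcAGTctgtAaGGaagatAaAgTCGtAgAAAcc
Tnfsf12 and Tnfsf13 share 46.8% and 57.3% of their windows with BC096441, a readthrough annotation that spans both, and Tnfrsf18 overlaps an antisense gene over 27.2% of its exon bases. The counts of these genes are therefore uncertain where they are given.

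Promoter sequences of RefSeq (GRCm38.p6) were at hand for 31 of the 41 members. The 250 bases before the gene start were searched on both strands for TGANTCA (the core bound by AP-1), CCGGAAG (an Ets core) and GGNNTTTCC (an NF-kappaB half-consensus), which are targets of Erk and TNF signalling in textbooks. These letters are held by 6.75%, 6.91% and 4.93% of all 32851 promoters of that length and by 6, 3 and 4 of the 35 promoters of these members, respectively. The promoters printed here belong to members that differ in the comparisons below, and were chosen because each holds a match to 1 of the 3 motifs, in capitals. Other members that differ, such as Tnfrsf11a and Fasl, hold no match. The Ets letters also stand in the promoters of Tnfrsf1a and Tnfrsf12a, which were not called between control and Ras cells. The Fas promoter (GRCm38.p6 chr19:34290409-34290658, plus strand) holds the AP-1 letters, that of Tnfrsf1b (chr4:145246871-145247120, minus strand) the Ets letters and that of Ltb (chr17:35194257-35194506, plus strand) the NF-kappaB letters. A match is a description of these letters, and binding was not measured.
Fas: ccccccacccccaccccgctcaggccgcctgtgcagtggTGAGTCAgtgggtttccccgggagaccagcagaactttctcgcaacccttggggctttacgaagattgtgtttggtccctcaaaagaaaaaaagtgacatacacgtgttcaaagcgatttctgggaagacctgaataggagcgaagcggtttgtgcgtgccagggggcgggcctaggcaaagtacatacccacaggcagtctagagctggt
Tnfrsf1b: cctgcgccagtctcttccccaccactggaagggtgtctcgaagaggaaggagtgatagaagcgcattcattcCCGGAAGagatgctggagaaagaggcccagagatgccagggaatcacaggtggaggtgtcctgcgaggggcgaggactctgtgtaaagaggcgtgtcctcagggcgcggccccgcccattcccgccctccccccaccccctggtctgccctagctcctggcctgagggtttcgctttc
Ltb: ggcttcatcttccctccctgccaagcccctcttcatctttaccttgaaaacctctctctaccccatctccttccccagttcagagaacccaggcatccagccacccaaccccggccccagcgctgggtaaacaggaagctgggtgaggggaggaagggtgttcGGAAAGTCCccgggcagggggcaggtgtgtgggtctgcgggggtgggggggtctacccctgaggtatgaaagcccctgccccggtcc

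Total counts per library lay between 20818989 and 51241336, so that 3 counts, the floor used here, correspond to between 0.0586 and 0.144 CPM (counts scaled to library size), which covers counting error only. CPM values below are counts divided by the library total, whereas fold changes come from edgeR fits with TMM scaling, and a member is called when the adjusted p over all genes tested is under 0.05. Correlations between replicates of a group were 0.984 to 0.998 on the log2(CPM + 1) scale. Mouse Hras did not rise with the Ras labels (80.0 to 94.3 CPM in controls, 52.9 to 83.1 CPM in RasHIGH), and the sources do not say whether reads of the transgene could be counted there, so this checks nothing. Leukocyte markers (Ptprc, Laptm5, Coro1a) summed to 2784 to 3232 CPM in liver stroma and 1661 to 2046 CPM in peritoneal stroma, against at most 11.2 CPM in tumour cells of 7 libraries and 51.6 CPM in the peritoneal tumour cells of mouse 1, which stood apart. The same tumour cell library held 48.0 CPM of neutrophil markers (1.48 to 2.04 CPM in the other three) and 1194 CPM of fibroblast markers (170 to 257 CPM in the other three). Epithelial progenitor markers such as Krt8 and Krt18 summed to 8109 to 11440 CPM in tumour cells and 644 to 1511 CPM in stroma, with 5 of 6 called higher in tumour cells at each site. The exception was Epcam, at most 0.129 CPM in tumour cells and 2.82 to 6.04 CPM in stroma. In bulk samples, fewer cells of a type and less RNA per cell cannot be told apart.

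The family divided mainly between tumour cells and stroma. A mean of at least 1 CPM was reached by 11 members in control BMEL, 9 in RasLOW, 9 in RasHIGH, 12 in tumour cells of either site, 33 in liver stroma and 31 in peritoneal stroma. The mean was highest in a stromal group for 36 of the 41 members, in a tumour cell group for 3 (Tnfrsf12a, Tnfrsf22 and Tnfrsf23) and in a cultured group for 2 (Tnfrsf10b in control and Tnfrsf21 in RasLOW). The shares of all genes for these counts were not computed. The counts describe the members and do not show whether the division is particular to the family. Cd70, Tnfrsf17, Lta, Tnfrsf8, Tnfrsf4 and Tnfsf4 stayed under a mean of 1 CPM in each of the 7 groups, Cd70 with 15 counts and Tnfrsf17, the plasma cell receptor BCMA, with 25 counts over all 25 libraries.

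**Figure D1:**
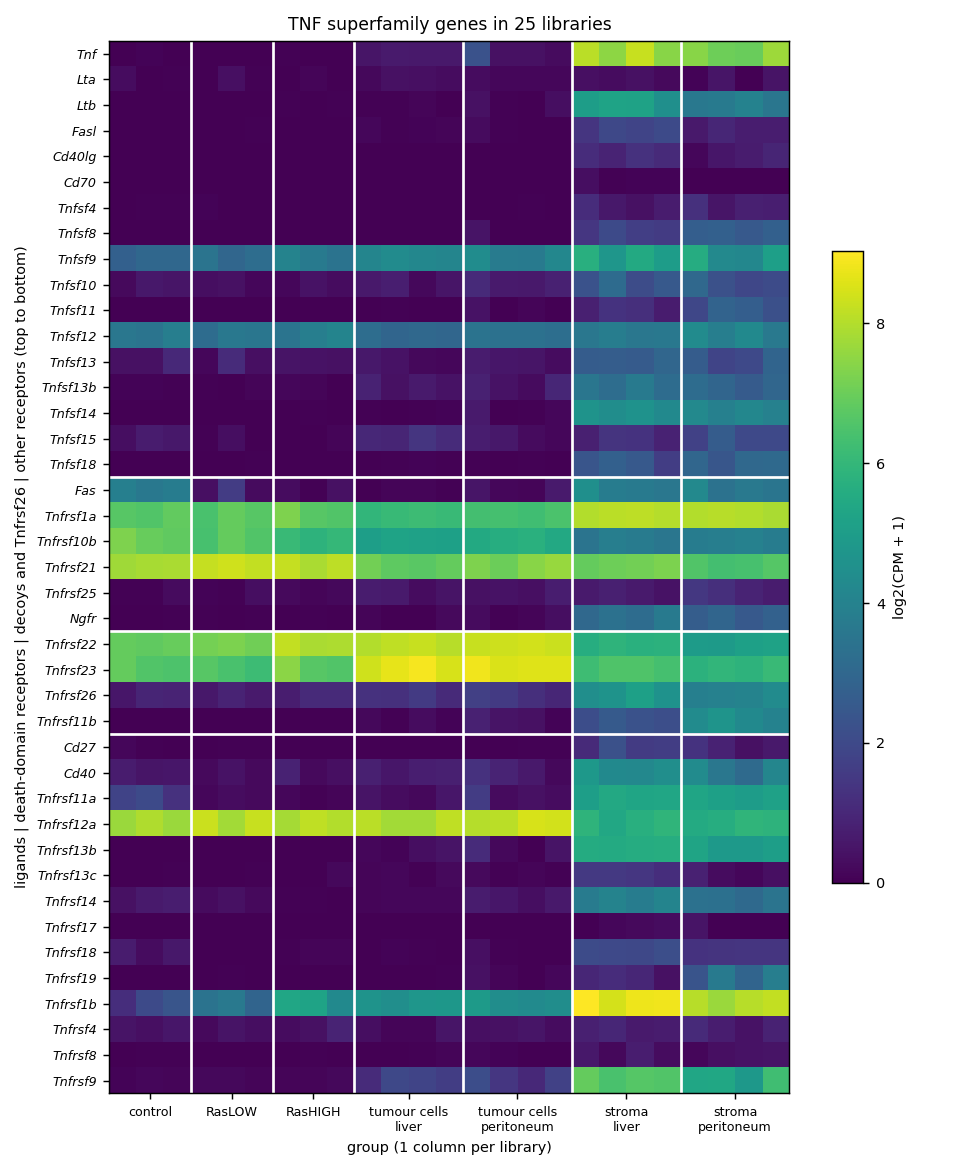
Heat map of log2(CPM + 1) for the 41 members (rows) in the 25 libraries (columns, divided by group), with ligands on top, then death-domain receptors, decoy receptors with Tnfrsf26, and other receptors. Most ligand rows are dark outside the 8 stromal libraries, while Tnfrsf12a, Tnfrsf21, Tnfrsf22 and Tnfrsf23 are bright in cultured and tumour cells.

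On a per-length scale (CPM per kilobase of exon), on which genes can be compared, the receptor for the ligand TWEAK, Tnfrsf12a, ranked highest of the family in cultured and tumour cells. Its level was 225 ± 25.5 CPM per kilobase in controls (SD, n = 3), 259 ± 37.2 in tumour cells of the liver and 318 ± 50.4 in those of the peritoneum (SD, n = 4). Tnfrsf21, a death-domain receptor, came second in culture with 62.4 ± 2.98 CPM per kilobase in controls, and Tnfrsf23 second in tumours with 118 ± 20.3 in the liver. In liver stroma the order was Tnf (141 ± 41.1), Tnfrsf1b (116 ± 18.2) and Tnfrsf1a (102 ± 4.43 CPM per kilobase), whose ranges overlapped between neighbours. In peritoneal stroma Tnfrsf1a (96.6 ± 4.69) and Tnf (96.6 ± 23.4) were alike in mean and Tnfrsf1b followed with 67.0 ± 9.78 CPM per kilobase.

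The first question was how the family differed between control cells and cells with low or high Ras expression. The largest change was the loss of Fas, the receptor of Fas ligand (mm9 chr19:34365149-34402260). Fas stood at 14.0, 11.1 and 12.7 CPM in controls 1 to 3, at 0.284, 2.02 and 0.214 CPM in RasLOW, and at 0.238, 0.0447 and 0.336 CPM in RasHIGH. Every control was above every Ras library, and the highest Ras value was RasLOW 2. Fas fell 14.97-fold in RasLOW (log2 fold change -3.90, SE 0.76, adjusted p = 0.0305) and 59.7-fold in RasHIGH (log2 fold change -5.90, SE 0.47, adjusted p = 0.000531). Without RasLOW 2 the RasLOW value was -5.58 (adjusted p = 0.000893).

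Tnfrsf11a encodes RANK, the receptor of the osteoclast and mammary factor RANKL. It read 2.56, 3.05 and 1.41 CPM in controls, 0.106, 0.220 and 0.172 CPM in RasLOW and 0.119, 0.0447 and 0.0961 CPM in RasHIGH. Every control was above every Ras library, RasLOW and RasHIGH overlapped, and the RasHIGH libraries were all at or near the floor. The fall was called in RasLOW (log2 fold change -3.78, SE 0.51, adjusted p = 0.0111) and in RasHIGH (-4.66, SE 0.54, adjusted p = 0.00169).

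Tnfrsf1b, the second TNF receptor, went the other way. It read 1.26, 3.05 and 4.24 CPM in controls, 9.79, 11.5 and 6.48 CPM in RasLOW and 39.7, 37.0 and 18.4 CPM in RasHIGH. These 3 groups did not overlap. It rose 11.3-fold in RasHIGH (log2 fold change 3.51, SE 0.48, adjusted p = 0.00319), while the RasLOW value of 1.73 (SE 0.45, adjusted p = 0.0685) missed the threshold. Leukocytes express this receptor strongly. Their markers summed to 0.159 to 0.447 CPM in all 9 cultured libraries, and the part of such cells in the Tnfrsf1b values was not tested.

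Of the TRAIL receptor genes, 1 fell and 1 rose. Tnfrsf10b, the signalling receptor, read 155, 122 and 113 CPM in controls, 84.2, 118 and 95.2 CPM in RasLOW and 68.8, 55.8 and 64.2 CPM in RasHIGH. RasHIGH lay below all other cultured libraries, whereas RasLOW overlapped with controls. It fell 2.06-fold in RasHIGH (log2 fold change -1.04, SE 0.17, adjusted p = 0.00613). The decoy gene Tnfrsf22 read 116, 111 and 120 CPM in controls, 141, 150 and 134 CPM in RasLOW and 294, 233 and 243 CPM in RasHIGH. It rose 2.23-fold in RasHIGH (log2 fold change 1.16, SE 0.13, adjusted p = 0.0014). Its neighbour Tnfrsf23, which shares part of its sequence, gave a log2 fold change of 0.31 (SE 0.26, adjusted p = 0.451).

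Tnfsf9, a co-stimulatory ligand for T and NK cells, read 5.89, 7.15 and 7.02 CPM in controls and 15.3, 12.03 and 9.75 CPM in RasHIGH. Its rise of 1.86-fold was called (log2 fold change 0.90, SE 0.22, adjusted p = 0.025), but not without control 1, 2 or 3 or without RasHIGH 2 (adjusted p 0.0682 to 0.0842). Over all alternative settings and left-out libraries, the Tnfsf9 call was lost in 6 and kept in 6. Tnfrsf1a, the main receptor of TNF, gave log2 fold changes of -0.02 (SE 0.14, adjusted p = 0.966) in RasLOW and 0.17 (SE 0.20, adjusted p = 0.578) in RasHIGH, and both signs turned when some single libraries were left out. Tnfrsf12a gave 0.38 (SE 0.19, adjusted p = 0.312) and 0.25 (SE 0.15, adjusted p = 0.282). Cd40, at means of 0.487 CPM in control, 0.239 CPM in RasLOW and 0.433 CPM in RasHIGH, was 2.01-fold lower in RasLOW without overlap but not called (SE 0.51 on the log2 scale, adjusted p = 0.313). In RasHIGH it gave -0.14 (SE 0.59, adjusted p = 0.90), a sign that turned without single libraries.

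**Figure D2:**
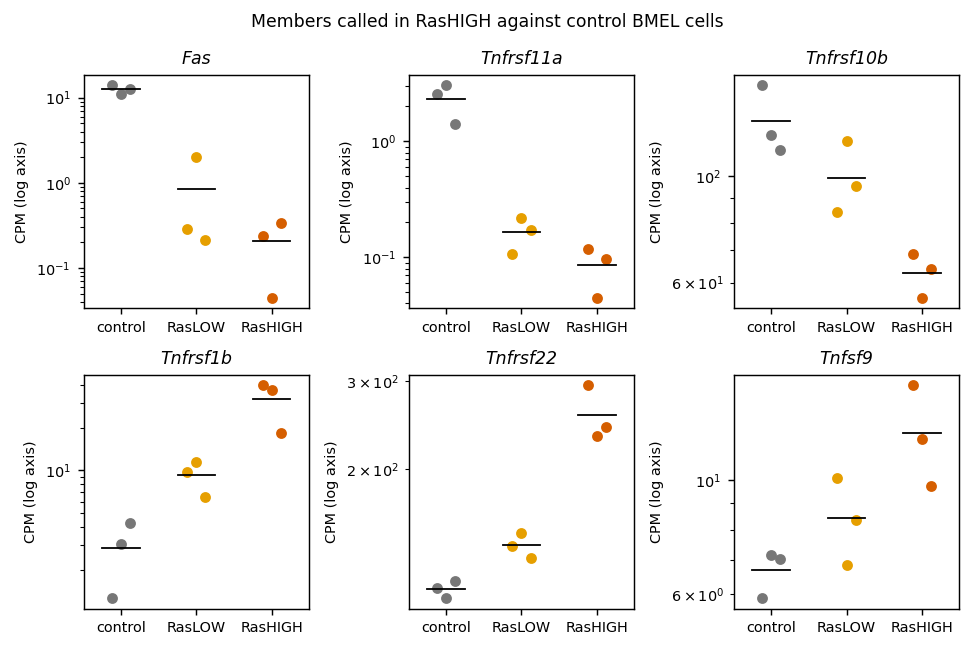
CPM on a log axis of the 6 members called in RasHIGH against control, with 1 point per library and a line at the mean of 3. Fas, Tnfrsf11a and Tnfrsf10b are lower and Tnfrsf1b, Tnfrsf22 and Tnfsf9 are higher in all 3 RasHIGH libraries than in all 3 controls.

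In counts, 14 members had reads enough to be tested in either comparison with controls. In RasLOW, 2 were called and both were lower, where 5.96% of all 12307 genes tested were called (1.92% higher, 4.05% lower). In RasHIGH, 6 were called, 3 higher and 3 lower, where 22.6% of 12331 genes were called (10.9% higher, 11.7% lower). The median log2 fold change of the tested members was -0.18 in RasLOW and 0.26 in RasHIGH, against 0.01 and -0.02 over all genes. The groups did not overlap for 6 of 14 members in each comparison, where 27.7% and 42.6% of all genes did not overlap. The Fas call in RasLOW was lost without control 1, 2 or 3 and without RasLOW 1 or 3 (adjusted p 0.0687 to 0.101), and that of Tnfrsf11a without control 2 or RasLOW 3 (adjusted p 0.0514 and 0.0544). Controls 1 and 2 carry another lane in their labels than the remaining 7 cultured libraries. Control 3, from the lane of the Ras libraries, lay between the other controls for Fas (12.7 CPM) and Tnfsf9 (7.02 CPM). It was the lowest control for Tnfrsf11a (1.41 CPM) and Tnfrsf10b (113 CPM). For Tnfrsf1b (4.24 CPM) and Tnfrsf22 (120 CPM) it was the highest control. The part of the lane in these differences was not tested.

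No member was called between RasHIGH and RasLOW among 10 tested by edgeR, where 0.0752% of 11962 genes were called, and 3 had an unadjusted p under 0.05, as did 1170 of all genes. These were Tnfrsf1b (log2 fold change 1.79, SE 0.36, adjusted p = 0.135), Tnfrsf22 (0.87, SE 0.15, adjusted p = 0.10) and Tnfrsf10b (-0.65, SE 0.16, adjusted p = 0.213), and none of these 3 overlapped between the groups, where 15.5% of all genes did not overlap. DESeq2 called 3 members and 419 of 11962 genes, and a fit over all 25 libraries called 4 members and 917 of 15757 genes. Tnfrsf1a (0.20, SE 0.22, adjusted p = 0.84) and Tnfrsf12a (-0.13, SE 0.21, adjusted p = 0.903) did not pass.

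Further genes of TNF signalling, 42 in all, were counted beside the 41 members. They were adaptors, kinases, caspases and other death genes, ubiquitin enzymes, NF-kappaB components and the shedding enzyme Adam17. The list also held Eda, Edar, Eda2r and Relt, family genes whose symbols lie outside the naming rule. In RasLOW 8 of 39 tested were called and all 8 were lower (5.96% of all genes were called, 4.05% lower), and in RasHIGH 12 were called, 11 of them lower (22.6% of all genes, 11.7% lower). Those that fell in RasHIGH included Birc3, an NF-kappaB target that protects from TNF-induced death (log2 fold change -4.24, adjusted p = 0.00309), and Tnfaip3, which encodes the brake A20 (-2.44, adjusted p = 0.012). None was called between RasHIGH and RasLOW by edgeR.

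Next, tumour cells were compared with the stroma of the same tumour. In the liver 35 of 37 tested members were called, 4 higher in tumour cells and 31 lower, where 77.8% of 14620 genes were called (38.4% higher, 39.4% lower). In the peritoneum all 35 tested members were called, 5 higher and 30 lower, where 76.6% of 14584 genes were called (39.5% higher, 37.1% lower). The median log2 fold change of the members was -5.09 in the liver and -4.31 in the peritoneum, against 0.00 and 0.07 over all genes. Many of these members passed the filter through stroma alone, so these medians describe where the genes were read. Another scaling (RLE) shifted all peritoneal values by -0.14 log2 units, and it changed no count of members called.

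Tumour cells were higher for the TRAIL receptors and the TWEAK receptor. Tnfrsf22 read 251, 283, 311 and 268 CPM in liver tumour cells of mice 1 to 4 and 48.5, 58.2, 51.7 and 55.2 CPM in liver stroma. In the peritoneum it read 305, 322, 336 and 313 CPM in tumour cells and 30.2, 29.5, 33.8 and 35.7 CPM in stroma. The groups stood far apart, with log2 fold changes of 2.31 (SE 0.11, adjusted p = 1.8e-09) and 3.19 (SE 0.10, adjusted p = 4.6e-07).

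Tnfrsf23 followed with 2.14 (SE 0.14) in the liver and 2.61 (SE 0.11) in the peritoneum, Tnfrsf12a with 2.18 (SE 0.14) and 2.45 (SE 0.15), and Tnfrsf10b with 1.48 (SE 0.11) and 1.69 (SE 0.10), all called. Tnfrsf10b was nonetheless lower in tumour cells than in culture, with 32.1 to 36.9 CPM in the liver and 42.5 to 52.5 CPM in the peritoneum against 55.8 to 68.8 CPM in RasHIGH. Tnfrsf23 went the other way, with 329 to 482 CPM in tumour cells of both sites against 71.2 to 177 CPM in the 9 cultured libraries. These cultured and sorted cells were not compared by a test. The RasLOW and RasHIGH libraries carry lane 4 in their labels and the sorted libraries lanes 1 to 3, so that lane cannot be told apart from culture there. In stroma the epithelial progenitor markers reached 14.9% (liver) and 7.66% (peritoneum) of their mean tumour cell level, Tnfrsf22 19.2% and 10.1%, and Tnfrsf12a 20.9% and 17.0%. Tnfrsf23 reached 21.6% and 15.1%, and Tnfrsf10b 34.2% and 28.7%. Whether the stromal reads of these genes come from unsorted tumour cells was not tested.

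**Figure D3:**
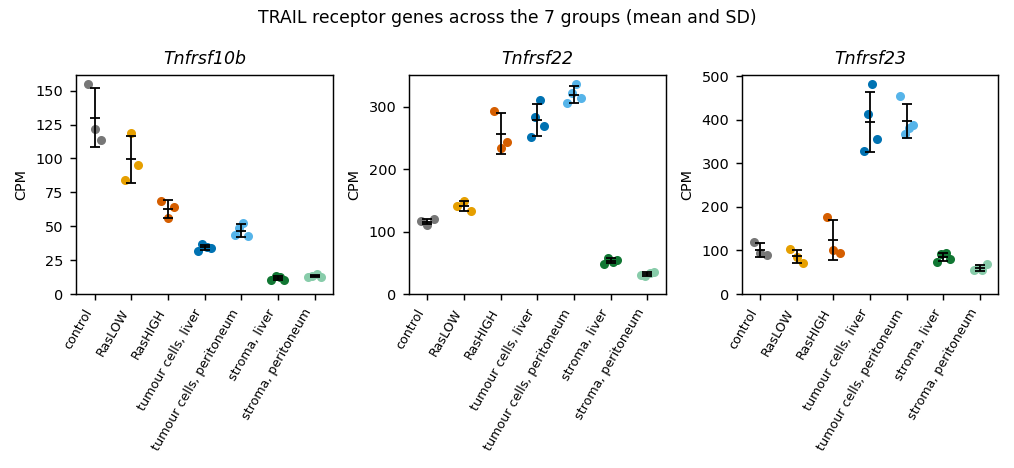
CPM of the TRAIL receptor genes Tnfrsf10b, Tnfrsf22 and Tnfrsf23 in the 7 groups, with 1 point per library and bars for the mean and SD. Tnfrsf10b is highest in controls, Tnfrsf22 is higher in RasHIGH and tumour cells than in control and RasLOW, and Tnfrsf23 is highest in tumour cells.

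Most ligands were read mainly in stroma, with exceptions. Tumour cells held 63.0% (liver) and 58.4% (peritoneum) of the stromal mean of Tnfsf12, 45.5% and 53.6% of that of Tnfsf9, 93.8% and 63.9% of that of Lta, which was near the floor, and 102% and 10.6% of that of Tnfsf15. Tnf read 269, 178, 307 and 172 CPM in liver stroma and 0.414, 0.563, 0.533 and 0.515 CPM in liver tumour cells (log2 fold change -8.92, SE 0.28, adjusted p = 7.6e-11). In the peritoneum it read 172, 131, 124 and 206 CPM in stroma and 3.79, 0.311, 0.332 and 0.189 CPM in tumour cells (-7.24, SE 0.92, adjusted p = 0.000115). The high tumour value is the library of mouse 1 that also held leukocyte markers, and without it the peritoneal value was -9.27 and 36 members were called. On group means, tumour cells carried 0.288% (liver) and 0.891% (peritoneum) of the leukocyte marker level of stroma, and 0.219% and 0.73% of its Tnf level. The part of sorted-in leukocytes in the tumour cell values was not tested.

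Ltb encodes lymphotoxin beta, which with lymphotoxin alpha guides lymphoid tissue. It read 31.6, 36.7, 35.4 and 21.7 CPM in liver stroma against at most 0.0842 CPM in liver tumour cells (log2 fold change -9.52, SE 0.33). In the peritoneum the values were 11.2, 12.1, 15.2 and 10.8 CPM in stroma and at most 0.319 CPM in tumour cells (-6.60, SE 0.70). Tnfsf14, the ligand LIGHT, gave -9.22 (SE 0.29) and -6.67 (SE 0.73), Fasl gave -5.09 (SE 0.41) and -3.80 (SE 0.81), and Tnfsf10 gave -3.51 (SE 0.41) and -2.63 (SE 0.39). Without the peritoneal tumour cells of mouse 1, the peritoneal values were -7.50 for Ltb, -8.57 for Tnfsf14 and -5.95 for Fasl. Cd27, Tnfsf8 and Cd40lg had 0 counts in all 4 liver tumour cell libraries and were at least 23.2-fold, 23.3-fold and 11.99-fold higher in liver stroma, computed against 3 counts per library.

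Among receptors, Fas read 21.4, 12.9, 12.3 and 10.8 CPM in liver stroma and 0.00, 0.0845, 0.0842 and 0.0322 CPM in liver tumour cells (log2 fold change -8.19, SE 0.44, adjusted p = 8.27e-09). In the peritoneum it read 17.9, 9.47, 11.6 and 10.3 CPM in stroma and 0.414, 0.113, 0.0976 and 0.566 CPM in tumour cells (-5.57, SE 0.53, adjusted p = 2.34e-05). Tumour cells of both sites thus lay within or below the range of cultured Ras cells for this gene and far under control BMEL, a comparison that was not tested. Tnfrsf1b stood at 24.3 ± 2.37 CPM in tumour cells and 442 ± 69.5 CPM in stroma (SD, n = 4; log2 fold change -4.26, SE 0.15), and with 22.4 ± 4.73 and 256 ± 37.4 CPM in the peritoneum (-3.63, SE 0.19). Tnfrsf1a, expressed by nearly all cell types, gave -2.06 (SE 0.09) and -1.74 (SE 0.07).

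Further members named by size of change were the B cell and plasma cell receptor Tnfrsf13b (log2 fold change -7.96, SE 0.27 in the liver and -6.43, SE 0.73 in the peritoneum), Tnfsf8 (-5.92, SE 0.87 in the peritoneum), Tnfsf18, the ligand of GITR (-8.17, SE 0.51), Tnfrsf19 (-6.26, SE 0.70) and Tnfrsf11a (-5.78, SE 0.68). Without the peritoneal tumour cells of mouse 1 the peritoneal values were -7.92 for Tnfrsf13b, -8.94 for Tnfsf8, -7.27 for Tnfrsf19 and -7.27 for Tnfrsf11a, and without those of mouse 3 that of Tnfsf18 was -8.86. Cd40, through which macrophages and dendritic cells are activated, gave -5.08 (SE 0.22) and -4.31 (SE 0.56), and Tnfrsf11b, the secreted decoy of RANKL, gave -5.10 (SE 0.42) and -5.72 (SE 0.45). Of the further signalling genes, 34 of 41 tested were called in the liver (4 higher in tumour cells, 30 lower) and 32 in the peritoneum (9 higher, 23 lower), where 77.8% and 76.6% of all genes were called. Ripk3, the kinase of necroptosis, was -7.38 and -6.52 and Birc3 -6.88 and -5.84, while Traf4 was 1.92 and 2.34.

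**Figure D4:**
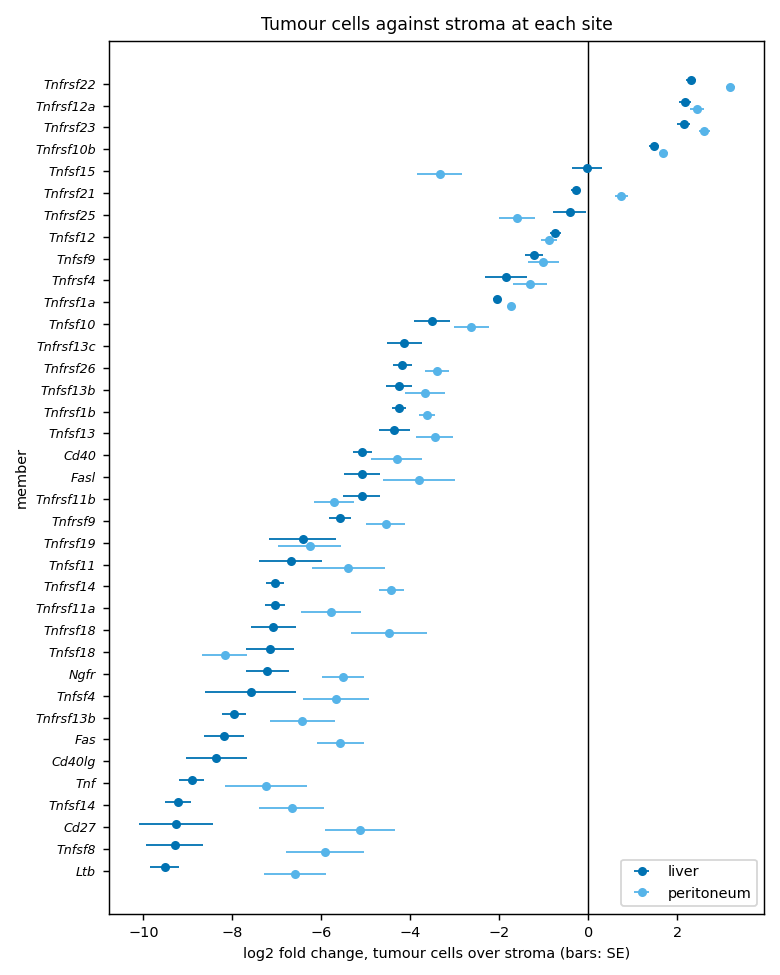
Log2 fold change of tumour cells over stroma, with SE bars, for each member tested in the liver (dark) and in the peritoneum (light), ordered by the liver value. Tnfrsf22, Tnfrsf12a, Tnfrsf23 and Tnfrsf10b lie right of 0 at both sites, Tnfrsf21 only in the peritoneum, and Tnfsf15 lies near 0 in the liver and at -3.34 in the peritoneum.

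The stroma of the liver tumour was then compared with that of the peritoneal tumour of the same mice. For mouse 2 the labels give lane 1 to the liver libraries and lane 2 to the peritoneal ones. Of 38 members tested, 20 were called, 13 higher in the liver and 7 higher in the peritoneum, where 33.4% of 14755 genes were called (14.9% higher, 18.5% lower in the liver). The median log2 fold change was 0.30 over the members and 0.02 over all genes. With the mouse as a block 23 were called, and Cd40 (0.56, adjusted p = 0.0266) and Tnfrsf10b (-0.32, adjusted p = 0.0373) then passed the threshold, which they missed without it (0.51, adjusted p = 0.18 and -0.31, adjusted p = 0.065). The groups did not overlap for 20 members, and 38.3% of all genes did not overlap.

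Of the 13 members higher in liver stroma, the 3 largest differences were those of Tnfrsf13c, Fasl and Ltb, genes of lymphocytes. Ltb, whose values per mouse are given above, was 21.7 CPM or more in each liver and 15.2 CPM or less in each peritoneal library (log2 fold change 1.23, SE 0.18, adjusted p = 0.000636). Fasl, the death ligand of cytotoxic lymphocytes, read 1.61, 2.91, 2.61 and 3.07 CPM in the liver and 0.550, 0.951, 0.642 and 0.666 CPM in the peritoneum, without overlap (1.74, SE 0.29, adjusted p = 0.00144). Tnfrsf13c, the BAFF receptor of B cells, read 1.81, 1.82, 1.72 and 1.29 CPM in the liver and 0.756, 0.216, 0.122 and 0.281 CPM in the peritoneum (2.15, SE 0.47, adjusted p = 0.00645, and 2.87 without peritoneal stroma of mouse 1).

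Tnfrsf9, induced on activated lymphocytes and myeloid cells, read 117, 86.2, 99.3 and 93.5 CPM in the liver and 39.4, 40.9, 27.2 and 74.7 CPM in the peritoneum (log2 fold change 1.01, SE 0.26, adjusted p = 0.0155). Tnfrsf18, or GITR, gave 0.87 (SE 0.18, adjusted p = 0.00492), Tnfrsf1b 0.67 (SE 0.15, adjusted p = 0.00811), Tnfrsf22 0.61 (SE 0.09, adjusted p = 0.000827) and Ngfr 0.59 (SE 0.18, adjusted p = 0.0339). The Ngfr call was lost without liver stroma of mouse 2 or 4 or peritoneal stroma of mouse 1, 3 or 4 (adjusted p 0.0538 to 0.0971). Over all alternative settings and left-out libraries, the Ngfr call was lost in 7 and kept in 7. Tnfrsf13b, Tnfrsf14, Tnfrsf21, Tnfrsf23 and Tnfrsf26 were called higher in the liver as well.

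Of the 7 members higher in the peritoneum, the 3 largest differences were those of Tnfrsf19, Tnfrsf11b and Tnfsf11. Tnfrsf11b, or osteoprotegerin, read 3.37, 4.88, 3.85 and 3.55 CPM in the liver and 19.2, 24.6, 18.5 and 14.9 CPM in the peritoneum (log2 fold change -2.42, SE 0.17, adjusted p = 9.39e-06). Its ligand RANKL, Tnfsf11, read 0.744, 1.51, 1.34 and 0.592 CPM in the liver and 2.78, 6.27, 5.41 and 3.61 CPM in the peritoneum (-2.23, SE 0.36, adjusted p = 0.00131). Tnfrsf19, found on stem and mesenchymal cells, had the largest difference, from 0.967, 1.19, 0.954 and 0.333 CPM to 4.02, 12.3, 6.45 and 13.6 CPM (-3.50, SE 0.46, adjusted p = 0.000381).

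Tnfsf15, a ligand made by endothelial cells, gave -1.66 (SE 0.34, adjusted p = 0.0047) and Tnfsf8, the CD30 ligand, -1.41 (SE 0.20, adjusted p = 0.000617), both without overlap between sites. Tnfsf12 and Tnfrsf25 were called as well, with overlapping libraries. By contrast, the receptor RANK itself, Tnfrsf11a, gave 0.02 (SE 0.10, adjusted p = 0.891), although its decoy and its ligand were higher in the peritoneum.

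Several of the other members tested did not pass. Tnf gave 0.44 (SE 0.23, adjusted p = 0.175), Fas 0.11 (SE 0.26, adjusted p = 0.776), Tnfsf10 0.07 (SE 0.35, adjusted p = 0.897), Tnfrsf1a -0.04 (SE 0.08, adjusted p = 0.719) and Tnfrsf12a -0.12 (SE 0.15, adjusted p = 0.587). The signs of Fas and Tnfsf10 turned without single libraries.

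Cell type markers moved between the sites too. Fibroblast markers (Col1a1, Col3a1, Dcn, Pdgfra, Pdgfrb) summed to 2845 to 5950 CPM in liver stroma and 39650 to 57270 CPM in peritoneal stroma, and 5 of 5 were called higher in the peritoneum. NK markers summed to 28.7 to 49.2 CPM in the liver and 8.10 to 14.6 CPM in the peritoneum (5 of 5 called higher in the liver), and B cell markers to 20.8 to 33.9 and 2.14 to 8.28 CPM (4 of 4). Kupffer cell markers summed to 125 to 352 CPM in the liver and 4.52 to 27.3 CPM in the peritoneum (3 of 4), and Clec4f was at 0 in every peritoneal library. Epithelial progenitor markers, which are higher in tumour cells than in stroma as Tnfrsf22 and Tnfrsf23 are, moved as well. They summed to 1270 to 1511 CPM in liver stroma and 644 to 1035 CPM in peritoneal stroma (4 of 6 called higher in the liver). Tnfrsf21 was called lower in liver tumour cells than in liver stroma (log2 fold change -0.28). In the peritoneum Tnfrsf21 was called higher in tumour cells than in stroma (0.75). T cell markers overlapped in their sums, at 16.2 to 25.2 and 19.3 to 38.8 CPM, and 1 of 5 was called higher in the peritoneum. Called higher in the liver were 3 of 3 leukocyte, 4 of 4 hepatocyte, 4 of 5 dendritic cell, 2 of 5 macrophage and 2 of 5 endothelial markers. Of the mesothelial markers, 1 of 4 was called higher in the peritoneum. Neutrophil markers reached 2445 CPM in peritoneal stroma of mouse 1 against 198 to 220 CPM in the other three mice, and without that library 17 members were called. The part of cell type content in the differences of the family was not tested.

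**Figure D5:**
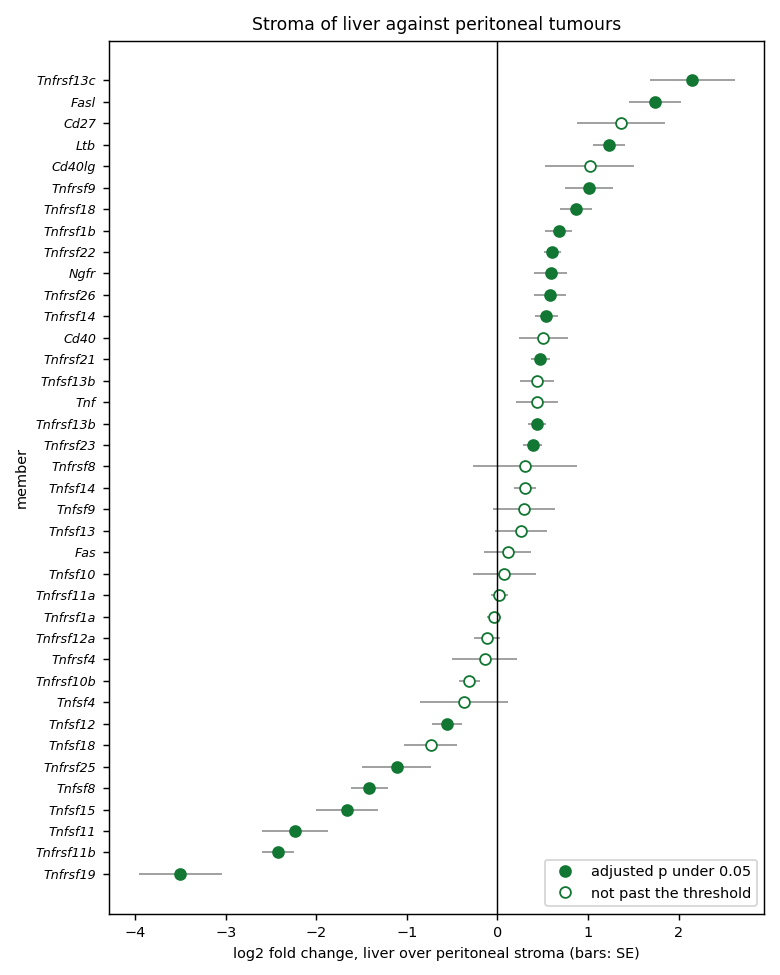
Log2 fold change of liver over peritoneal stroma with SE bars for the 38 members tested, filled where the adjusted p was under 0.05. Tnfrsf19, Tnfrsf11b and Tnfsf11 lie farthest to the peritoneal side and Tnfrsf13c, Fasl, Cd27 and Ltb farthest to the liver side, with Cd27 not called.

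Of the signalling genes, 16 of 41 were called between the stromas, 14 of them higher in the liver, where 33.4% of all genes were called (14.9% higher, 18.5% lower). These included Rel (log2 fold change 0.94, adjusted p = 0.00343), Nfkbie (0.64, adjusted p = 0.0237) and Ikbkb (0.64, adjusted p = 0.00131) of the NF-kappaB pathway. The 2 genes higher in the peritoneum were Eda (-1.97, adjusted p = 0.00541), a family ligand of skin appendages outside the naming rule, and the receptor gene Eda2r (-0.76, adjusted p = 0.0193).

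Tumour cells of the liver and of the peritoneum did not overlap for 4 of the 20 members tested, where 12.15% of all genes did not overlap. Of these 20 members, 1 was called, where 3.2% of 13074 genes were called. This was Tnfrsf10b, at 32.1, 36.9, 34.9 and 33.6 CPM in the liver and 43.5, 48.7, 52.5 and 42.5 CPM in the peritoneum, without overlap (log2 fold change -0.39, SE 0.09, adjusted p = 0.0477). The call was lost with the mouse as a block (adjusted p = 0.073, 0 members called), and without any liver library or the peritoneal library of mouse 2 or 3 (adjusted p 0.0662 to 0.118). Over all alternative settings and left-out libraries, it was lost in 10 and kept in 4.

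Tnfsf15 read 1.01, 0.901, 1.66 and 1.16 CPM in liver tumour cells and 0.637, 0.481, 0.195 and 0.113 CPM in peritoneal ones and missed the threshold (log2 fold change 1.78, SE 0.50, adjusted p = 0.0836). Tnf gave -1.15 (SE 0.86, adjusted p = 0.495), a value set by 1 library, since without the peritoneal library of mouse 1 it was 0.88, and 2 members were then called. Tnfrsf1a (-0.23, SE 0.09, adjusted p = 0.186), Tnfrsf12a (-0.25, SE 0.13, adjusted p = 0.30), Tnfrsf1b (0.17, SE 0.15, adjusted p = 0.575), Tnfsf10 (-0.69, SE 0.46, adjusted p = 0.442) and Cd40 (-0.14, SE 0.54, adjusted p = 0.913) did not pass. Of the signalling genes 2 of 41 were called (3.2% of all genes), the necroptosis effector Mlkl (0.47, adjusted p = 0.033) and Eda2r (-0.86, adjusted p = 0.0491).

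Whether the site effect differed between tumour cells and stroma was tested by an interaction term over all 16 sorted libraries. Of 38 members tested, 4 were called, where 14.3% of 15331 genes were called. For Tnfsf15 the site effects, liver over peritoneum, were 1.78 in tumour cells (not called) and -1.66 in stroma (called), and their difference in the interaction fit was 3.37 log2 units (SE 0.62, adjusted p = 0.00201). Tnfrsf14, the receptor HVEM, read 0.092 to 0.129 CPM in liver and 0.254 to 0.606 CPM in peritoneal tumour cells, but 12.6 to 15.7 CPM in liver and 7.39 to 10.2 CPM in peritoneal stroma (-2.55, SE 0.34, adjusted p = 0.00018). Tnfrsf21 (-0.98, SE 0.18, adjusted p = 0.00249) and Tnfrsf22 (-0.83, SE 0.14, adjusted p = 0.000848) were called higher in liver than in peritoneal stroma, whereas in tumour cells their site values were -0.42 (adjusted p = 0.108) and -0.14 (adjusted p = 0.428). Of the signalling genes 7 of 41 were called (14.3% of all genes), all 7 with a negative value.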

How the data were processed

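The authors prepared mRNA libraries (NuGEN), sequenced them on a HiSeq instrument and aligned them to mm9 (TopHat2); what they deposited are raw read counts by gene. The submitters' processing notes list FastQC, Bowtie 0.12.2, mm8 and mm10 instead. The counting program, its strand setting and the annotation are not given in the sources used here.

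Tests were run with edgeR 4.0.16 under R 4.3.3 (filterByExpr, minimum count 10, TMM, quasi-likelihood F-test, Benjamini-Hochberg adjustment over all genes tested), each comparison on the libraries of its 2 groups only, except the interaction over all sorted libraries. Scripts were tested on simulated data. Members and gene lists were chosen with earlier results of these data known. Named genes were called members with a mean of at least 1 CPM and no overlap (up to 8 each way), and 11 fixed members (Tnf, Tnfsf10, Tnfrsf10b, Fas, Fasl, Tnfrsf1a, Tnfrsf1b, Tnfrsf11b, Tnfrsf12a, Cd40, Ltb) wherever tested; others are named as examples after their values were seen. Alternatives were DESeq2 1.42.0, RLE scaling, no filter, a replicate block, all 25 libraries in one fit, the thresholds of the study, and leaving out each library. Deviations of libraries from the same mouse correlated at -0.05 (tumour cells by site), 0.18 (stroma by site), 0.23 and 0.19 (tumour cells and stroma) on average, the pairing coming from the mouse number in the labels. The labels do not say whether the 3 libraries of a cultured group are separate cultures, so p-values there measure only the spread between libraries. Positions are of GENCODE M1 on mm9. Some signalling genes that were counted are not reported here by name.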

Additional observations from a re-analysis of the deposited data

Results flagged for a closer look

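In groups of 4 libraries, 1 library stood far from the other three by Dixon's ratio in 5 of the 88 groups with a mean of at least 1 CPM, where chance gives about 1 in 20. These were Tnf (3.79 CPM against 0.189 to 0.332) and Tnfrsf1b (29.4 CPM against 19.1 to 20.7) in peritoneal tumour cells of mouse 1, the library that also held leukocyte, neutrophil and fibroblast markers. In stroma they were Tnfsf12 in the liver of mouse 2 (13.2 CPM against 10.96 to 11.28), Tnfsf13 in the liver of mouse 4 (6.91 CPM against 5.06 to 5.33) and Tnfsf18 in the peritoneum of mouse 2 (4.37 CPM against 6.97 to 7.44).

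The effect of the site differed between tumour cells and stroma, by the interaction term, for Tnfsf15 (3.37 log2 units), Tnfrsf14 (-2.55), Tnfrsf21 (-0.98) and Tnfrsf22 (-0.83). Tnfrsf14 lay at 0.092 to 0.606 CPM in tumour cells, so that its tumour value rests on few reads.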

How the results depend on the processing

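Each comparison was recomputed under 6 other settings and without each library in turn, and the cause of each change was not tested. For most of these settings, here and above, the share of all genes called is not given beside the count of members. A changed count can therefore reflect a change in calls over all genes, and it is not read as a result about the family. In RasLOW against control 2 members were called, against 4 with DESeq2, 4 without a filter, 7 with all 25 libraries in one fit and 0 to 6 when a library was left out. In RasHIGH against control the study's thresholds called 3 in place of 6. Between RasHIGH and RasLOW the count of 0 became 3 with DESeq2, 4 with all libraries and 1 with the study's thresholds. Between tumour cells of both sites the count of 1 became 3 with DESeq2, 0 without a filter, 0 with the block and 0 to 2 without a library. Between stromas 20 became 12 with all libraries and 11 with the study's thresholds. For the interaction 4 became 7 with DESeq2 and 4 to 7 without a library, 7 being without the peritoneal tumour cells of mouse 2.

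With the replicate block, 2, 5, 0, 0, 23, 35, 34 and 6 members were called in the 8 comparisons, in the order RasLOW and RasHIGH against control, RasHIGH against RasLOW, site in tumour cells, site in stroma, tumour cells against stroma (liver, then peritoneum) and the interaction. Cultured replicates share only a number, and deviations of same-numbered libraries correlated at -0.12, 0.06 and -0.30 on average.

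Signs turned only for values that had not passed the threshold. Tnfrsf1a was 0.012 (RasLOW against control) and 0.001 (site in stroma) with all libraries, and Cd40 and Tnf were 0.093 and 0.006 with the block (site in tumour cells). Without single libraries Tnfrsf1a ran from -0.107 to 0.069 (RasLOW against control), -0.056 to 0.337 (RasHIGH against control) and -0.035 to 0.352 (RasHIGH against RasLOW), Tnfrsf12a from -0.302 to 0.002 (RasHIGH against RasLOW), Cd40 from -1.026 to 0.219 (RasHIGH against control) and -0.473 to 0.385 (site in tumour cells), Tnf from -1.499 to 0.883 (site in tumour cells), and in stroma Fas from -0.158 to 0.321 and Tnfsf10 from -0.212 to 0.441. Of 1230 recomputed values of named genes, 1158 kept direction and side of the threshold, 38 lost and 13 gained the call and 21 changed sign. With DESeq2 the share of higher calls over all genes moved from 32.15% to 42.54% in RasLOW against control and from 77.78% to 59.9% in RasHIGH against RasLOW. Members under 3 counts per library are limited by depth.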
